A study of Mus musculus with 8 samples.

Results

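The genes described here are 10 heat shock chaperones and co-chaperones of the cytosol and of the mitochondrial matrix: Hspa8, Dnaja1, Dnajb1, Hsph1, Bag3, Hsp90aa1, Hsp90ab1, Hspb1, Hspd1 and Hspe1. They were chosen by name, with earlier results of these data known, and found by gene symbol. All 10 were present once among the 23699 annotated loci (23235 gene symbols) of the liver transcriptome. All 10 were also among the 10865 loci that had at least 1 FPKM (fragments per kilobase of transcript and sequencing depth, the unit of the deposited values) in at least 2 libraries and were tested.

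Polyadenylated RNA came from the livers of 8-week-old male C57/BL6 mice, either labelled control or carrying a liver-specific knockout of Med23 (LMKO). The product of Med23 belongs to Mediator, through which DNA-bound activators reach RNA polymerase II. In each genotype 1 group was taken at the end of a 24 h fast and the other after a further 24 h with food, so every mouse had been through a fast. Each of the 4 groups had 2 libraries, which the series design gives as n = 2. How the knockout was driven, and the alleles of the control mice, are not given in the sources used here.

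Heat shock chaperones hold unfolded or partly folded proteins and release them to fold. HSC70, the product of Hspa8, works in a cycle of ATP binding and hydrolysis: J-domain proteins such as those of Dnaja1 and Dnajb1 bring clients and start hydrolysis, and exchange factors such as those of Hsph1 and Bag3 end the cycle. Clients can then pass to HSP90, encoded by Hsp90aa1 and Hsp90ab1. Hspb1 encodes a small heat shock protein that holds clients without using ATP. Hspd1 and Hspe1 encode the chamber and the lid of the mitochondrial chaperonin. Many of these genes are classical targets of the heat shock factor HSF1, which binds heat shock elements, arrays of the letters GAA and their complement TTC in alternating orientation.

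The sequence between Hspd1 and Hspe1 is shown first because these 2 genes point away from each other and share the stretch between their starts. The deposited loci, on build mm9, are Hspd1 at chr1:55134678-55144776 and Hspe1 at chr1:55144992-55148161, with 215 bases between them. RefSeq's promoter table (build GRCm38.p6, each window running from 250 bases before to 50 after a start, the first transcribed base being +1 and the base before it -1) gives the same 215 bases between the Hspe1 start, on the plus strand, and 1 of the 2 Hspd1 starts, on the minus strand. The stretch, on the plus strand at chr1:55087933-55088147 of GRCm38.p6, ends 1 base before the Hspe1 start. Capitals mark letters that match a heat shock element of 3 units, searched on both strands as GAANNTTCNNGAA or TTCNNGAANNTTC.
Hspd1-Hspe1: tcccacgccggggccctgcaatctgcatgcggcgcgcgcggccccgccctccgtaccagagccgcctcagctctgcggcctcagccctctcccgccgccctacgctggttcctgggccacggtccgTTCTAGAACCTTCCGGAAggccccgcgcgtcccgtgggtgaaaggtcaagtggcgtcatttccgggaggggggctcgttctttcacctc
The capitals hold 2 overlapping matches, which begin 89 and 84 bases before the Hspe1 start. The same letters lie in the Hspd1 window, where the matches begin at -144 and -139 as read on the other strand.

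Of the 10 genes, 7 had a window in the promoter table; Hspa8, Hsp90aa1 and Hsp90ab1 had none. The element of 3 units was found for 3 of the 7, Hspd1, Hspe1 and Hsph1, against 0.662% of the 27025 genes of the table (0.603% of its 32851 windows). The matches of Hspd1 and Hspe1 are the same letters, so here and in the next count these genes are not separate cases. A shorter match of 2 units, GAANNTTC or TTCNNGAA, which every match of 3 units contains, was found for 6 of the 7, against 17% of all genes (15.1% of all windows). Dnajb1 had neither match in its 2 windows, and Dnaja1 had the shorter one in 1 of its 3. The stretches below show the matches of the other genes on their coding strand, again with the matching letters in capitals: for Hsph1 a stretch just after and one just before the start, then Hspb1, Dnaja1 and Bag3.
Hsph1 after the start: gctgcagaTTCTGGAAAGTTC
Hsph1 before the start: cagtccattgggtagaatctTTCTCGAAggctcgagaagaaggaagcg
Hspb1: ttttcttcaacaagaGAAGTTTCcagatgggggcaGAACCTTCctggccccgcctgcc
Dnaja1: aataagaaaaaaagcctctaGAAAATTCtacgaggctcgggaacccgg
Bag3: aagttctctggatgggaccaGAAGTTTC
These lie, on GRCm38.p6, at chr5:149636288-149636308 and chr5:149636342-149636389 (both minus strand), chr5:135887787-135887844, chr4:40722324-40722371 and chr7:128523605-128523632 (plus strand). The first Hsph1 stretch, with 3 units, covers +29 to +49, and the Bag3 stretch covers +23 to +50. The windows were searched for letters only, and the deposited files hold no measurement of factor binding.

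Features of the whole set of libraries bear on these genes. The deposited FPKM summed to between 453652 and 468218 in the fasted libraries and to between 511926 and 597650 in the re-fed ones. Scaling each library to the same sum, an alternative chosen after seeing the data, moved the median log2 change of all tested loci on re-feeding from 0.06 to -0.20 in LMKO and from 0.13 to -0.05 in control. Med23 was at 2.86 and 2.93 FPKM in fasted control, 2.35 and 2.18 in fasted LMKO, 2.86 and 2.33 in re-fed control, and 1.61 and 1.74 in re-fed LMKO. The LMKO libraries were the lower in both states without overlap, but the difference did not pass the test (mean of both states, log2 -0.34, SE 0.08, limma adjusted p = 0.173). Of the 10 hepatocyte markers, 9 were detected and summed to between 21864 and 30427 FPKM in every library, and the albumin gene Alb was listed at 0 in all 8.

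One library stood apart for these genes. Re-fed LMKO replicate 1 held the highest value of 8 of the 10 chaperones, whereas it held the highest value of 13.1% of all tested loci. It also had Hspa1b, an inducible HSP70 gene, at 14.0 FPKM against 1.26 to 3.92 in the other 7 libraries. The split of reads between Hspa1b and its near-identical copy Hspa1a, at 0.655 FPKM or less in every library, is uncertain. Arntl and Dbp, 2 of the 12 clock genes tested, also set this library apart. Arntl was at 6.32 FPKM against 0.493 to 2.71 in the other 7, and Dbp was at 6.60 FPKM against 17.4 to 53.2. The median re-feeding response of the 12 clock genes in LMKO was -0.68, and -0.53 without this library. Hspa1b, Arntl and Dbp were chosen after their values were seen. The responses to re-feeding in LMKO are given below also without this library, and the part of time of day or of a stress was not tested.

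In LMKO liver 8 of the 10 chaperone transcripts rose on re-feeding, Bag3 by 3.53-fold and Hspe1 by 2.24-fold in mean FPKM, where 39.5% of all tested loci passed and 23.2% passed as higher. Only Bag3 and Hspe1 of the 10 passed when fasted LMKO replicate 1, fasted LMKO replicate 2 or re-fed LMKO replicate 1 was left out alone. In control liver Bag3 and Hspe1 rose by 1.47-fold and 1.52-fold, and Hspa8 fell to 0.647 of its fasted level, where 33.2% of loci passed. Between the genotypes, all 10 averaged higher in LMKO than in control liver when re-fed, as did 51.5% of loci, and 9 of 10 averaged lower when fasted, where 64.8% of loci averaged higher, but no chaperone passed the test in either state. The panels of values by library show this for each gene.

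**Figure D1:**
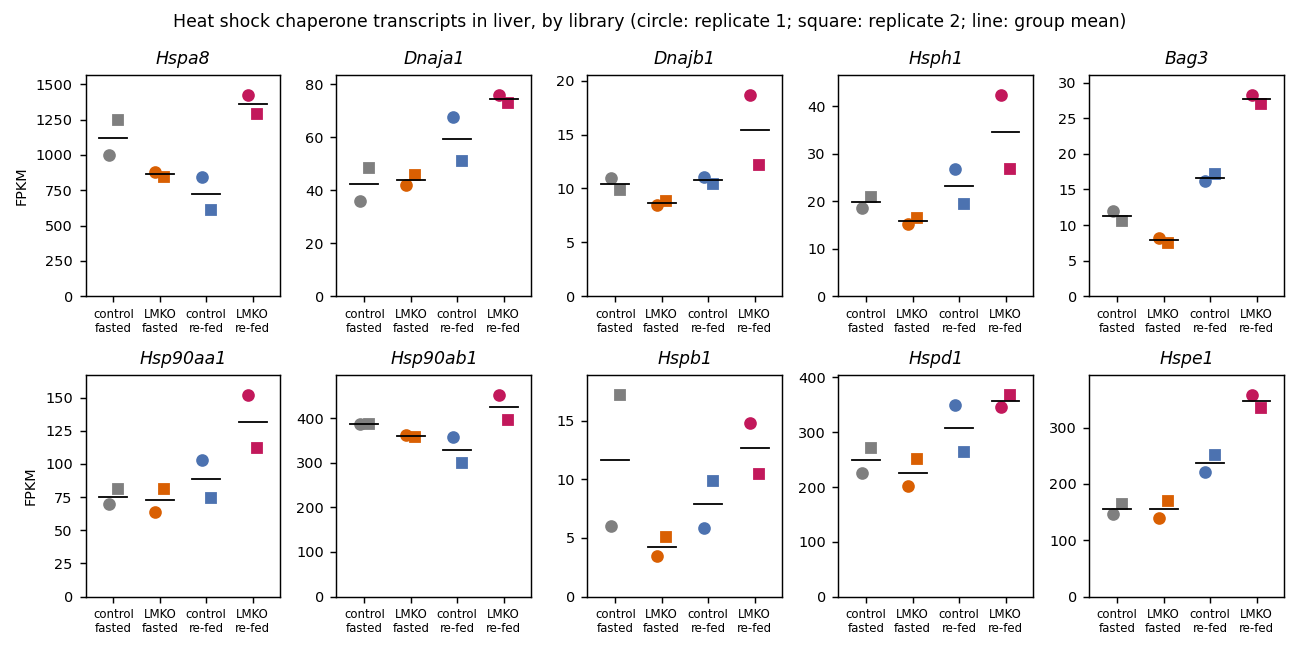
Deposited FPKM of the 10 chaperone transcripts in each of the 8 liver libraries, with axes from 0, circles for replicate 1, squares for replicate 2 and a line at the mean of each group (control or LMKO, fasted or re-fed). In every panel both re-fed LMKO libraries lie above both fasted LMKO libraries, and Bag3 goes from 8.22 and 7.46 FPKM to 28.3 and 27.0.

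The levels of the 10 genes spanned a wide range. FPKM is scaled to transcript length, so levels are set side by side here. A relation to transcript length that differed between libraries, given below, limits how closely they can be compared. Hspa8 was the most abundant, with a mean of 1018 FPKM over the 8 libraries. It ranked between percentile 99.4 and 99.8 of all 23699 annotated loci, tested or not, in every library. Hsp90ab1 followed at 375 FPKM, Hspd1 at 285 and Hspe1 at 224. The ranges of these 3 over the libraries overlapped, as Hspe1 reached 358 FPKM and Hsp90ab1 went down to 299.6. Hsp90aa1 averaged 92.0 FPKM, Dnaja1 55.0, Hsph1 23.3, Bag3 15.9, Dnajb1 11.3 and Hspb1 9.09, and the ranges of neighbours in this order overlapped. Hspb1 varied most in proportion, with its highest library 5.04 times its lowest, and Hsp90ab1 least, at 1.51 times.

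Hspa8, at chr9:40609356-40613282 on mm9, encodes the constitutive cytosolic HSP70. It was at 998 and 1249 FPKM in fasted control, 880.0 and 844 in fasted LMKO, 841 and 612 in re-fed control, and 1427 and 1291 in re-fed LMKO. No groups overlapped within a genotype or within a feeding state: re-fed libraries were the lower ones in control and the higher ones in LMKO. In control Hspa8 fell on re-feeding by 0.64 on the log2(FPKM + 1) scale, on which all fold changes and standard errors below are given (SE 0.19, limma adjusted p = 0.0434). In LMKO it rose by 0.65 (SE 0.19, limma adjusted p = 0.0345). Neither call held without re-fed LMKO replicate 1 (limma adjusted p = 0.0708 and 0.15), although the estimates were -0.64 and 0.58. The LMKO value was 0.20 under quantile normalization and 0.32 under library-sum scaling (limma adjusted p = 0.467 and 0.26). The interaction, defined as the LMKO response minus the control response, was 1.29 (SE 0.27), with an unadjusted p of 0.00226 that did not pass adjustment over all loci (limma adjusted p = 0.454).

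The J-domain proteins deliver clients to HSC70. Dnaja1, at chr4:40669501-40684184, was at 36.1 and 48.5 FPKM in fasted control, 42.1 and 45.8 in fasted LMKO, 67.4 and 51.0 in re-fed control, and 76.0 and 72.8 in re-fed LMKO. Both genotypes were higher when re-fed without overlap, and re-fed LMKO lay above re-fed control. Dnaja1 rose in LMKO (0.75, SE 0.19, limma adjusted p = 0.0210; 0.72 and 0.0929 without re-fed LMKO replicate 1), whereas its change of 0.48 in control did not pass (SE 0.19, limma adjusted p = 0.0940). Dnajb1, at chr8:86132074-86135802, encodes a J-domain partner of HSP70 in the heat shock response. It was at 11.0 and 9.86 FPKM in fasted control, 8.51 and 8.81 in fasted LMKO, 11.1 and 10.4 in re-fed control, and 18.7 and 12.2 in re-fed LMKO. The control groups overlapped, and the other pairs compared did not. Dnajb1 rose on re-feeding in LMKO (0.74, SE 0.19, limma adjusted p = 0.0217); without re-fed LMKO replicate 1 the value was 0.46 and the adjusted p 0.0783. Its change in control was 0.04 (SE 0.19, limma adjusted p = 0.881), with a sign that turned under median-ratio, quantile and library-sum scaling.

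Hsph1 and Bag3 encode proteins that release nucleotide from HSP70. Hsph1 (HSP110), at chr5:150419420-150438890, was at 18.6 and 20.9 FPKM in fasted control, 15.1 and 16.4 in fasted LMKO, 26.8 and 19.4 in re-fed control, and 42.4 and 26.7 in re-fed LMKO. Fasted LMKO was below fasted control and below re-fed LMKO without overlap, and the re-fed groups overlapped by a narrow margin. Hsph1 rose on re-feeding in LMKO (1.05, SE 0.24, limma adjusted p = 0.0153), with 0.73 and an adjusted p of 0.0658 when re-fed LMKO replicate 1 was left out. In control its change was 0.20 (SE 0.24, limma adjusted p = 0.554), and it turned negative under quantile and library-sum scaling.

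Bag3, at chr7:135667097-135690493, links HSP70 to small heat shock proteins and to the autophagic removal of clients. It was at 12.0 and 10.6 FPKM in fasted control, 8.22 and 7.46 in fasted LMKO, 16.2 and 17.1 in re-fed control, and 28.3 and 27.0 in re-fed LMKO. No 2 of the 4 groups overlapped, with fasted LMKO lowest, then fasted control, re-fed control and re-fed LMKO. Bag3 rose on re-feeding in both genotypes, by 0.52 in control (SE 0.11, limma adjusted p = 0.0166) and by 1.70 in LMKO (SE 0.11, limma adjusted p = 8.42e-04). Without re-fed LMKO replicate 1 the LMKO response was 1.66 (limma adjusted p = 0.0094), so its size did not rest on that library. The interaction was 1.18 (SE 0.16), with the smallest unadjusted p of the 10 genes, 1.86e-04, and did not pass either (limma adjusted p = 0.273).

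The HSP90 genes differed from each other. Hsp90aa1, at chr12:111929246-111934605, encodes the stress-inducible form. It was at 69.6 and 80.8 FPKM in fasted control, 63.7 and 81.4 in fasted LMKO, 103 and 74.2 in re-fed control, and 152 and 112 in re-fed LMKO. The fasted groups overlapped, and re-fed LMKO lay above each of the other groups. Hsp90aa1 rose on re-feeding in LMKO (0.85, SE 0.23, limma adjusted p = 0.0267), with 0.62 and an adjusted p of 0.136 without re-fed LMKO replicate 1. Its change in control, 0.22 (SE 0.23, limma adjusted p = 0.497), turned negative under quantile and library-sum scaling.

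Hsp90ab1, at chr17:45704727-45710210, encodes the constitutive form. It was at 388 and 386 FPKM in fasted control, 363 and 357 in fasted LMKO, 357 and 299.6 in re-fed control, and 452 and 397 in re-fed LMKO. As for Hspa8, re-fed libraries were the lower ones in control and the higher ones in LMKO, without overlap. Neither change passed the test, at -0.24 in control (SE 0.14, limma adjusted p = 0.209) and 0.23 in LMKO (SE 0.14, limma adjusted p = 0.208), and the LMKO value was 0.14 without re-fed LMKO replicate 1 and turned to -0.37 under quantile normalization and -0.10 under library-sum scaling. Under quantile normalization Hsp90ab1 was called as lower on re-feeding in control (-0.63, limma adjusted p = 0.0222) and in the mean of both genotypes (-0.50, limma adjusted p = 0.00766). The ratio of Hsp90aa1 to Hsp90ab1 FPKM was 0.179 and 0.210 in fasted control, 0.176 and 0.228 in fasted LMKO, 0.287 and 0.248 in re-fed control, and 0.336 and 0.281 in re-fed LMKO. This ratio does not depend on library scaling, and in both genotypes the re-fed libraries had the higher ratios.

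Hspb1, at chr5:136363789-136365433, encodes the small heat shock protein HSP25. It was at 6.03 and 17.2 FPKM in fasted control, 3.42 and 5.04 in fasted LMKO, 5.83 and 9.88 in re-fed control, and 14.8 and 10.5 in re-fed LMKO. The fasted control libraries lay far apart, and the control groups overlapped. Both re-fed LMKO libraries were above both fasted LMKO libraries, a difference of 1.38 (SE 0.46) that did not pass (limma adjusted p = 0.0521) and was 1.16 without re-fed LMKO replicate 1. The change in control was -0.39 (SE 0.46, limma adjusted p = 0.541), and it became 0.29 without fasted control replicate 2.

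The mitochondrial pair is transcribed from either end of the shared stretch printed above. Hspd1 was at 226 and 272 FPKM in fasted control, 202 and 250.4 in fasted LMKO, 349.7 and 264 in re-fed control, and 346 and 368 in re-fed LMKO. The control groups overlapped, and the LMKO groups did not. Hspd1 rose on re-feeding in LMKO (0.66, SE 0.19, limma adjusted p = 0.0313), an estimate that was 0.71 without re-fed LMKO replicate 1 (limma adjusted p = 0.0976). It was 0.12 under quantile normalization and 0.33 under library-sum scaling (limma adjusted p = 0.679 and 0.245). In control the change was 0.30 (SE 0.19, limma adjusted p = 0.265), and it turned negative under quantile normalization.

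Hspe1 was at 147 and 164 FPKM in fasted control, 139.6 and 170.1 in fasted LMKO, 221 and 252 in re-fed control, and 358 and 335 in re-fed LMKO. The fasted groups overlapped, re-fed control lay above both, and re-fed LMKO lay above re-fed control. Hspe1 rose on re-feeding in control (0.60, SE 0.15, limma adjusted p = 0.0228) and in LMKO (1.16, SE 0.15, limma adjusted p = 0.00247). The control call was lost under median-ratio, quantile and library-sum scaling and with the trend by transcript length removed. It was also lost when only the 4 libraries of the comparison were fitted. Over the 13 alternatives that kept all libraries of a comparison, Hspe1 was called in 8 for control, with estimates from 0.21 to 0.60, and in 13 for LMKO. The LMKO value was 1.12 without re-fed LMKO replicate 1 (limma adjusted p = 0.0211). The ratio of Hspe1 to Hspd1 FPKM was 0.653 and 0.604 in fasted control, 0.691 and 0.679 in fasted LMKO, 0.632 and 0.955 in re-fed control, and 1.03 and 0.912 in re-fed LMKO. The ratio was thus higher in re-fed than in fasted LMKO libraries, whereas 1 re-fed control library lay within the range of the fasted controls and the other above it. Re-fed control replicate 1, with the ratio of 0.632, also differed from the other re-fed libraries in the relation of its deviations to transcript length. That relation, described below, had an r of -0.0183 there and of -0.357 to -0.325 in the other re-fed libraries. The part of transcript length in this ratio was not tested.

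Read across the genes, re-feeding in LMKO moved 8 of the 10 chaperones up past the test, where 39.5% of all tested loci passed in either direction and 23.2% passed as higher. All 10 were higher in both re-fed than in both fasted LMKO libraries, as were 41.5% of tested loci. The median change of the 10 was 0.80, against 0.06 over all tested loci. The count rested on each of the LMKO libraries, as only Bag3 and Hspe1 were called whichever LMKO library was left out. Fewer of all loci were called in these fits as well, since 1 group then has 1 library. The median of the 10 was 0.70 without fasted LMKO replicate 1 and 0.92 without fasted LMKO replicate 2. Without re-fed LMKO replicate 2 it was 1.05. The count was 8 or 9 when a control library was left out. The median was 0.71 without re-fed LMKO replicate 1. It was 0.53 under quantile normalization and 0.47 under library-sum scaling, where the medians of all loci were 0.01 and -0.20. Under these scalings 4 and 2 of the 10 genes were called, where 4026 and 4314 of the 10865 loci were called.

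Re-feeding in control moved Bag3 and Hspe1 up and Hspa8 down, 3 of 10, where 33.2% of tested loci passed, 22.8% as higher and 10.5% as lower. The median change was 0.21, against 0.13 over all tested loci, and 1 library moved it: it was -0.01 without re-fed control replicate 1, 0.43 without re-fed control replicate 2, 0.12 without fasted control replicate 1, 0.31 without fasted control replicate 2 and -0.11 under quantile normalization. No call was left when replicate 2 of either control group was left out, where 14.2% (fasted) and 16.3% (re-fed) of loci were called, and over the 8 fits without 1 library Bag3 was called in 6, Hspe1 in 5 and Hspa8 in 2. Averaged over both genotypes, 7 genes rose, all but Hspa8, Hsp90ab1 and Hspb1, where 53.1% of loci passed and 32.4% passed as higher. The 2 largest averaged responses were those of Bag3 (1.11, SE 0.08, limma adjusted p = 2.35e-04; 1.09 without re-fed LMKO replicate 1) and Hspe1 (0.88, SE 0.10, limma adjusted p = 8.60e-04; 0.86 without it). Hspa8, whose responses had opposite signs, averaged 0.01 (SE 0.14). The count was 3 when replicate 1 of fasted control, of fasted LMKO or of re-fed control was left out, and 4 for replicate 1 of re-fed LMKO, where 44.2% to 49.7% of all loci were called.

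**Figure D2:**
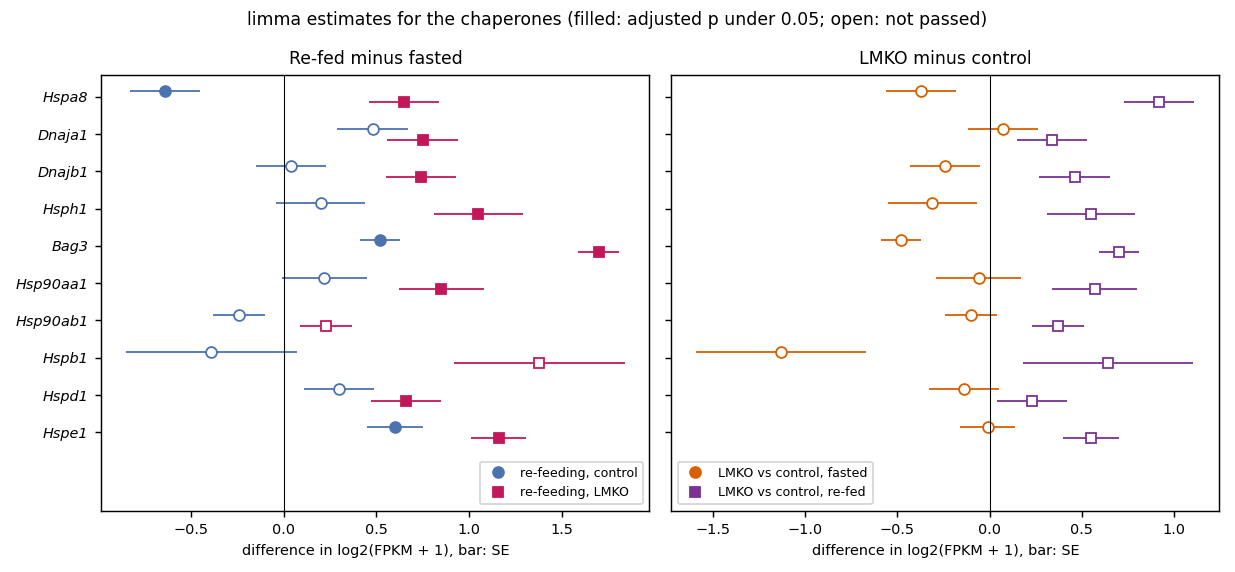
Differences in log2(FPKM + 1) with their standard errors from the limma fit for the 10 chaperones, re-fed minus fasted in each genotype on the left and LMKO minus control in each feeding state on the right; filled symbols passed an adjusted p of 0.05. On the left 8 LMKO symbols and 3 control symbols are filled, and on the right none is, with all re-fed differences above 0 and 9 of 10 fasted differences below 0.

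The mean difference between LMKO and control had opposite signs in the 2 feeding states for 9 of the 10 chaperones. In fasted liver no chaperone passed the limma test, where 0.166% of loci did, and 2 had an unadjusted p under 0.05, both lower: Bag3 (-0.48, SE 0.11, limma adjusted p = 0.189) and Hspb1 (-1.13, SE 0.46, limma adjusted p = 0.392), which was -1.82 without fasted control replicate 1 and -0.44 without fasted control replicate 2. Over all loci 12.4% had an unadjusted p under 0.05, 3.56% as lower. Of the 10, 9 averaged lower in LMKO, while 64.8% of all loci averaged higher. In 6 of the 10 both LMKO libraries were below both controls, as for 12.8% of loci: Hspa8, Dnajb1, Hsph1, Bag3, Hsp90ab1 and Hspb1. The median was -0.19, against 0.08 over all loci. The exception, Dnaja1 (0.07, SE 0.19), turned to -0.03 under median-ratio scaling and -0.01 under quantile normalization. Leaving out fasted control replicate 2 left 7 genes below control, and leaving out fasted LMKO replicate 1 left 6.

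In re-fed liver no chaperone passed the limma test either, where 0.101% of loci did. All 10 averaged higher in LMKO, as did 51.5% of loci, and this held under each scaling and without each library. An unadjusted p under 0.05 was reached by 6 of the 10, against 7.11% of all loci in that direction. Under quantile normalization and under library-sum scaling 3 of the 10 reached it, where 1069 and 1195 of all loci did in either direction. Both LMKO libraries lay above both controls for 8 of the 10, as for 25.6% of loci; the other two were Hsph1 and Hspd1. The largest were Hspa8 (0.92, SE 0.19, limma adjusted p = 0.246) and Bag3 (0.70, SE 0.11, limma adjusted p = 0.184), at 0.85 and 0.67 without re-fed LMKO replicate 1. The median was 0.55, against 0.01 over all loci, and 0.33 without re-fed LMKO replicate 1. Averaged over both states, no chaperone passed the limma test, where 0.313% of loci did, and Hspe1 alone had an unadjusted p under 0.05, as had 15.1% of loci (0.27, SE 0.10, limma adjusted p = 0.294).

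The interaction test called no chaperone, where 0.0368% of loci passed. The response of LMKO was the more positive for all 10, against 41.9% of loci, also under each scaling and without each library. An unadjusted p under 0.05 was reached by 7 of the 10 (limma), against 9.35% of all loci and 3.25% in that direction. Under quantile normalization 5 of the 10 reached it and under library-sum scaling 3, where 999 and 1141 of all loci did. The median interaction of the 10 was 0.66, and 0.46 without re-fed LMKO replicate 1. These comparisons share libraries: the same re-fed LMKO values enter the re-feeding response of LMKO, the genotype difference in the re-fed state and the interaction. For 5 genes, Hspa8, Hsp90ab1, Dnajb1, Bag3 and Hspb1, both LMKO libraries were below both controls when fasted and above both when re-fed, as for 2.00% of all tested loci. For Hspa8 and Hsp90ab1 both re-fed controls were also below both fasted controls, while both re-fed LMKO libraries were above both fasted LMKO libraries, as for 0.792% of loci.

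The chaperones were then compared library by library. Summed over the 10, the FPKM were 1912 and 2258 in fasted control, 1725 and 1786 in fasted LMKO, 1999 and 1610 in re-fed control, and 2916 and 2652 in re-fed LMKO. Re-fed LMKO was the highest group and did not overlap with another. As a share of all FPKM of a library, however, the sums were 0.416% and 0.498% in fasted control and 0.488% and 0.457% in re-fed LMKO, which overlap. Hspa8 made up much of the sum, which without it was 1489 and 1361 FPKM in re-fed LMKO and 1158 or less elsewhere. Within LMKO the lowest library stood out as well: fasted replicate 1 held the lowest value of 6 of the 10 genes. The map of deviations by library shows both ends.

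**Figure D3:**
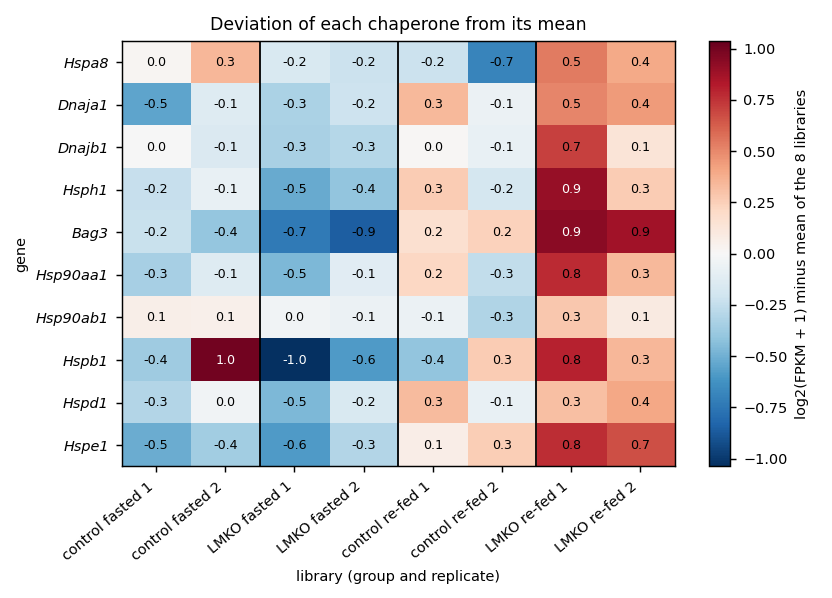
Each chaperone's log2(FPKM + 1) in each library minus its own mean over the 8 libraries, with genes in rows and libraries in columns, red above and blue below the mean. Re-fed LMKO replicate 1 is the highest library for 8 genes and fasted LMKO replicate 1 the lowest for 6, while Hspb1 in fasted control replicate 2 departs from the other genes.

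As a description over the 8 libraries, in which the group differences take part, Pearson's r between the log2 levels of 2 chaperones ran from 0.29 to 0.96 over the 45 pairs, with a median of 0.67, and from -0.16 to 0.98 with a median of 0.50 without re-fed LMKO replicate 1. Hspa8 went most closely with Hsp90ab1 (0.94, and 0.93 without re-fed LMKO replicate 1). Hsph1 went with Hsp90aa1 (0.96, and 0.90 without it), and Dnaja1 with Hspd1 (0.94 in both cases). The constitutive pair Hspa8 and Hsp90ab1 had the lowest values with Hspe1, at 0.34 and 0.29, which were 0.04 and -0.16 without it. Among 6616 other genes with a mean of at least 5 FPKM, the closest to the mean pattern of the 10 were Ugt1a9 (r = 0.950), which lies in a locus of overlapping Ugt1a transcripts, and Ahsa1 (r = 0.944), which encodes the activator of the HSP90 ATPase. Nkiras1, Nop16, Cycs, Acsf3, Atp6v1h and Mal2 followed, down to r = 0.910. Without re-fed LMKO replicate 1 the values of Ugt1a9 and Ahsa1 were 0.949 and 0.875. Ahsa1 was at 56.6 and 68.1 FPKM in fasted control, 56.1 and 58.4 in fasted LMKO, 61.1 and 61.7 in re-fed control, and 83.1 and 71.5 in re-fed LMKO. Only re-fed LMKO was above all other libraries.

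The related lists are given with all libraries, and their LMKO calls without re-fed LMKO replicate 1 come after the last list. Their counts stand beside shares over all tested loci of 22.8% called higher and 10.5% lower on re-feeding in control. In LMKO these shares were 23.2% and 16.3%. Few of the remaining cytosolic HSP70 genes were expressed above the filter. Of 9 further genes of this family 4 were tested, and 1, Hspa14 in LMKO, rose on re-feeding (0.69, SE 0.14, limma adjusted p = 0.0101). Hspa1b, at 2.40 and 1.26 FPKM in fasted LMKO and 14.0 and 3.25 in re-fed LMKO, did not pass (1.53, SE 0.53, limma adjusted p = 0.0602), and its high value is that of 1 library. Of 11 other cytosolic J-domain genes, 3 rose in control (Dnaja4, Dnajb4 and Dnajc9) and 4 in LMKO (these and Dnajb2). Dnaja4 went from 0.693 and 0.608 to 1.20 and 1.60 FPKM in control and from 0.570 and 0.499 to 1.98 and 2.27 FPKM in LMKO. Dnajb2 rose in LMKO by 0.84 (SE 0.12, limma adjusted p = 0.00388), from 18.7 to 34.3 FPKM on average. None of the 3 other small heat shock protein genes tested was called in LMKO, while Hspb6 rose in control by 0.73 (SE 0.23, limma adjusted p = 0.0471).

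Of 6 exchange factors other than Bag3 and Hsph1, 4 passed in both genotypes. Bag1, Bag2 and Hspbp1 rose and Bag4 fell on re-feeding in control and in LMKO. Bag4, which encodes the silencer of death domains, fell by 0.93 in control and by 1.22 in LMKO (both SE 0.11, limma adjusted p = 0.00298 and 0.00133), opposite to Bag3. Bag2, whose product inhibits the ubiquitin ligase CHIP, went from 0.617 to 2.45 FPKM on average in LMKO and from 0.746 to 1.66 in control.

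Among the 16 co-chaperones of HSP90 and HSP70, 5 rose and 1 fell in control, and 7 rose and 1 fell in LMKO. The gene that fell was Fkbp5, an immunophilin and a target of the glucocorticoid receptor: it was at 56.8 and 119.9 FPKM in fasted control against 10.9 and 6.10 when re-fed, and at 48.0 and 69.5 in fasted LMKO against 7.20 and 7.58. Fkbp4, also an immunophilin gene, went the other way, from 43.7 and 28.0 to 102 and 97.8 FPKM in control. In LMKO Fkbp4 went from 35.9 and 42.4 to 135 and 118 FPKM. Ppid, another immunophilin, rose by 0.73 in control and 1.08 in LMKO (both SE 0.13, limma adjusted p = 0.00942 and 0.00236). Stub1, which encodes CHIP, rose in control (0.82, SE 0.16, limma adjusted p = 0.0117), and Chordc1 rose in LMKO (0.91, SE 0.17, limma adjusted p = 0.00781).

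The other mitochondrial chaperones and proteases gave calls in both directions. Of 11 genes, 3 rose and 1 fell in each genotype, near the shares over all loci. Hspa9, the mitochondrial HSP70, rose by 0.49 in control (SE 0.13, limma adjusted p = 0.0279) and by 0.43 in LMKO (SE 0.13, limma adjusted p = 0.0357), so its responses lay side by side where those of Hspe1 were 0.60 and 1.16. Dnajc19, a J-domain subunit at the import channel, rose by 1.09 and 1.24. The exchange factor Grpel2 fell by 1.16 in control and by 1.45 in LMKO, to 7.19 and 6.53 FPKM on average. Clpb rose in control and the protease subunit Clpp in LMKO.

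The cytosolic chaperonin and prefoldin, which fold actin and tubulin, had 4 of 13 tested subunits higher in control (Pfdn1, Pfdn2, Pfdn5 and Cct7) and 6 in LMKO. Pfdn1 rose most, by 1.25 in control and by 1.32 in LMKO (both SE 0.10, limma adjusted p = 0.00129 and 9.97e-04). Of the chaperones of the endoplasmic reticulum, a separate compartment, 13 of 15 rose in each genotype, with medians of 1.11 in control and 1.30 in LMKO, led by Sdf2l1 (2.49 and 2.57) and Manf (2.48 and 2.64). The 10 heat shock chaperones thus had medians below those of the endoplasmic reticulum list in both genotypes, 0.21 and 0.80; no test compared the lists. No gene of these lists passed the limma test of LMKO against control in either state, of the mean of both states, or of the interaction. Pfdn1 had the smallest unadjusted p among them in the mean of both states (0.32, SE 0.07, limma adjusted p = 0.157).

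Without re-fed LMKO replicate 1, calls on re-feeding in LMKO were fewer in most of these lists, as over all loci. The endoplasmic reticulum list had 11 of 15 called, with a median of 1.28. The co-chaperone list had 4 higher, with Fkbp4, Ppid (1.11, limma adjusted p = 0.0183) and Chordc1 (0.77, limma adjusted p = 0.0485) among them, and Fkbp5 lower. Hspa14 (0.87, limma adjusted p = 0.0178), Dnaja4, Dnajb4, Dnajb2 (0.75, limma adjusted p = 0.0297), Bag2, Bag4, Dnajc19, Grpel2, Clpp, Pfdn1, Pfdn2 and Pfdn5 were called as well. Dnajc9, Bag1, Hspbp1 and Hspa9 were not, with estimates of 0.51, 0.52, 0.69 and 0.44 (limma adjusted p = 0.0870, 0.0736, 0.0907 and 0.128). Hspa1b was at 0.62 in that fit (limma adjusted p = 0.141).

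**Figure D4:**
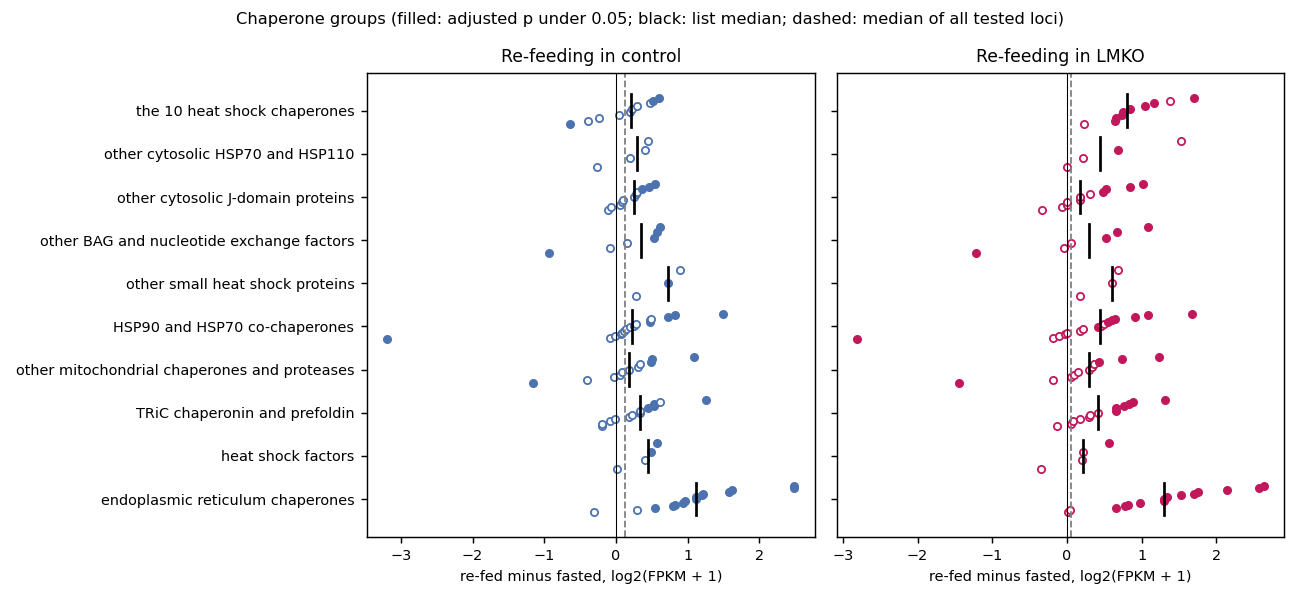
Re-fed minus fasted differences in log2(FPKM + 1) of single genes, one dot a gene, for the 10 heat shock chaperones and 9 related lists, in control (left) and LMKO (right); filled dots passed an adjusted p of 0.05, black bars are list medians and the dashed line is the median of all tested loci. The median of the 10 chaperones is 0.21 on the left and 0.80 on the right, and that of the endoplasmic reticulum list is 1.11 and 1.30.

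Of the regulators of the heat shock response, Hsf1 was not called in any comparison and lay between 6.12 and 7.81 FPKM in all 8 libraries. Hsf2 was at 9.15 and 6.84 FPKM in fasted control, 13.0 and 10.6 in fasted LMKO, 9.95 and 11.7 in re-fed control, and 7.76 and 10.4 in re-fed LMKO, and its interaction of -0.75 (SE 0.28) did not pass (limma adjusted p = 0.507). Hsbp1, whose product binds HSF1, rose on re-feeding in control (0.57, SE 0.11, limma adjusted p = 0.0128) and in LMKO (0.56, SE 0.11, limma adjusted p = 0.0107; 0.0532 without re-fed LMKO replicate 1), and Hsf4 rose in control (0.49, SE 0.12, limma adjusted p = 0.0218). These are transcript levels, and the activity of HSF1 was not measured. Cirbp, a cold-inducible RNA-binding protein gene that is higher at lower body temperature, fell on re-feeding by 0.81 in control (SE 0.25, limma adjusted p = 0.0463) and by 1.20 in LMKO (SE 0.25, limma adjusted p = 0.0110; 0.0587 without re-fed LMKO replicate 1). Rbm3, of the same class, did not pass in either genotype (0.20 and -0.07, limma adjusted p = 0.688 and 0.895). Body temperature was not measured, and its part in the chaperone values was not tested.

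Markers of other liver cells moved with feeding, in both directions. Of all tested loci, 10.5% were called lower on re-feeding in control and 16.3% in LMKO, and 22.8% and 23.2% were called higher. Kupffer cell and macrophage markers, 10 in number, summed to 114 and 136 FPKM in fasted control, 124 and 163 in fasted LMKO, 96.9 and 125 in re-fed control, and 56.6 and 86.1 in re-fed LMKO. On re-feeding 1 of these 10 fell in control and 6 in LMKO, of which 1 was called without re-fed LMKO replicate 1. Sinusoidal endothelial markers fell in both genotypes, 4 of 7 in control and 6 of 7 in LMKO (5 without that library). Their sums were 88.0 and 78.8 FPKM in fasted control, 117 and 111 in fasted LMKO, 60.6 and 70.4 in re-fed control, and 69.1 and 50.3 in re-fed LMKO, so the re-fed groups overlapped. Of 8 stellate cell markers 1 rose and 1 fell in control, and 2 fell in LMKO (1 without that library). The Kupffer count in control and the stellate counts of lower genes lay near the shares over all loci. Cholangiocyte markers, 5 in number, summed to between 8.12 and 12.0 FPKM in the fasted libraries and between 24.2 and 30.1 in the re-fed ones. Of these 3 were tested, and 1 rose in each genotype. Neither the 2 neutrophil nor the 4 erythroid loci tested gave a call on re-feeding. None of these markers was listed at 0 in all libraries. In whole liver RNA fewer cells of a type and less RNA per cell cannot be told apart, and the part of cell composition in the chaperone values was not tested. Another measure that moved with feeding was the relation of each library's deviations to transcript length: r across genes was 0.222 to 0.293 in the fasted libraries, -0.0183 in re-fed control replicate 1 and -0.357 to -0.325 in the other re-fed libraries. With that trend removed, 7 of the 10 chaperones were called on re-feeding in LMKO, where 3195 of all loci were, against 4296 as deposited. In control Bag3, Dnaja1 and Hspa8 were then called and Hspe1 was not, where 3058 of all loci were called, against 3610 as deposited.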

How the data were processed

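Liver polyA RNA was sequenced in 8 libraries, 2 for each combination of genotype (control, LMKO) and feeding state, grouped by the labels. The authors deposited 1 FPKM value per locus and library; per the submitters' processing notes, reads were processed with TopHat 1.4.1, SAMtools 1.4.1, Cufflinks 2.0.2 and Cuffdiff 2.0.2 on mm9. Fragment numbers are unknown, so no count model was fitted. Deposited starts count from 0 and are printed 1 higher.

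All loci with at least 1 FPKM in at least 2 libraries were tested with limma 3.58.1 (R 4.3.3) on log2(FPKM + 1), a pseudocount of 1 that understates changes of low genes. The model had 4 group means (4 residual degrees of freedom) and moderated variances by eBayes with a trend. P-values are two-sided, Benjamini-Hochberg adjusted over all 10865 loci in each of 7 comparisons; calls are those with an adjusted p under 0.05. The fit was tested on simulated data. The design gives n = 2 per group, and whether a library is 1 animal or a pool is not stated, so the spread between libraries may be partly technical.

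The members and lists were chosen with earlier results of these data known. All 10 chaperones and Med23 were always named. From each other list, all called genes were named if 4 or fewer, otherwise up to 4 with the smallest p. The 8 genes of most similar pattern were those with the highest correlation to the mean z-score of the 10. Alternatives were other pseudocounts (0.1, 0.5), filters, scalings, eBayes settings, a length correction, fewer libraries, summed loci and a replicate block. The replicate numbers did not pair the libraries (correlations of deviations between -0.0835 and -0.00835 over 6 pairs of groups), so the block is an alternative only. Promoter windows came from RefSeq tables of GRCm38.p6, used for sequence only.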

Additional observations from a re-analysis of the deposited data

Results flagged for a closer look

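For 5 chaperones every LMKO library moved against control in opposite directions in the 2 feeding states, or re-feeding moved the genotypes in opposite directions, and none of these differences passed adjustment over all loci in the limma test of the interaction. Hspa8, the constitutive HSP70 gene, was lower in both re-fed than in both fasted controls and higher in both re-fed than in both fasted LMKO libraries, with an interaction of 1.29 (SE 0.27, limma adjusted p = 0.454; 1.22 without re-fed LMKO replicate 1). Hsp90ab1, the constitutive HSP90 gene, had the same arrangement with an interaction of 0.48 (SE 0.19, limma adjusted p = 0.521; 0.38 without that library), but the direction of its LMKO response turned under quantile and library-sum scaling. Both LMKO libraries lay below both controls when fasted and above both when re-fed for Dnajb1 (interaction 0.70, SE 0.27, limma adjusted p = 0.509; 0.41 without that library), Bag3 (1.18, SE 0.16, limma adjusted p = 0.273; 1.15 without it) and Hspb1 (1.78, SE 0.65, limma adjusted p = 0.507; 1.55 without it, and 2.46 and 1.09 without fasted control replicate 1 and 2). With 2 libraries a group, 2.00% of all tested loci had the second arrangement and 0.792% the first.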

How the results depend on the processing

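No chaperone was called in either genotype comparison, in their mean or in the interaction under any of the alternatives run. The number of chaperones called on re-feeding in control, 3, was 1 under library-sum scaling and 0 when only the 4 libraries of the comparison were fitted. In these fits 2971 and 1968 of all loci were called. Hspe1 was not called in control in either fit, nor under median-ratio or quantile scaling or with the length trend removed. In LMKO, 8 became 5 with no filter on low values, 4 under quantile normalization and 2 under library-sum scaling. The loci called were then 3975 (of a larger set tested), 4026 and 4314, against 4296 as deposited. In the mean of both genotypes, 7 became 4 under median-ratio scaling, 3 under quantile normalization (Bag3 and Hspe1 higher, and Hsp90ab1 lower) and 2 under library-sum scaling. Under these scalings 5816, 5603 and 5678 of all loci were called in the mean, against 5765 as deposited. Leaving out 1 library gave between 0 and 3 calls in control, 2 and 9 in LMKO, and 3 and 7 in the mean. With the replicate number as a block, 2 chaperones were called on re-feeding in control, 7 in LMKO and 7 in the mean. Of all loci 2967, 3804 and 5411 were called there. In the mean genotype comparison the block gave 18 in place of 34 of all loci. The replicate numbers do not pair the libraries. In all loci, calls on re-feeding in LMKO were 2521 higher and 1775 lower as deposited, 2012 and 2014 under quantile normalization, and 1213 and 3101 under library-sum scaling; in control they were 2473 and 1137, 1672 and 1694, and 1327 and 1644.

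Some signs turned. Under quantile normalization and library-sum scaling, in that order, re-feeding in control was -0.16 and -0.00 for Hsp90aa1, -0.04 and -0.01 for Hsph1, and -0.09 and -0.16 for Dnajb1 (-0.09 also under median-ratio scaling); re-feeding in LMKO was -0.37 and -0.10 for Hsp90ab1; and the mean genotype difference of Hspd1 was -0.09 and -0.04. Quantile normalization also gave Hspd1 -0.13 on re-feeding in control and -0.00 in the mean of both genotypes. The mean re-feeding response of Hspa8 was -0.08, -0.33 and -0.27 under median-ratio, quantile and library-sum scaling, and Dnaja1 in fasted LMKO against control was -0.03 and -0.01 under the first and second of these. The cause was not tested. Leaving out 1 library gave ranges that crossed 0: in fasted LMKO against control for Hsp90aa1 (-0.23 to 0.12), Hspd1 (-0.29 to 0.02), Hspe1 (-0.15 to 0.13) and Dnaja1 (-0.14 to 0.27); in the mean genotype difference for Hspd1 (-0.05 to 0.15), Hspb1 (-0.59 to 0.10), Hsph1 (-0.04 to 0.28) and Dnajb1 (-0.04 to 0.25); on re-feeding in control for Hsp90aa1 (-0.01 to 0.45), Hspb1 (-1.08 to 0.29), Hsph1 (-0.03 to 0.42) and Dnajb1 (-0.03 to 0.12); and in the mean re-feeding response for Hsp90ab1 (-0.07 to 0.06) and Hspa8 (-0.11 to 0.12). With 2 libraries a group and an unknown number of fragments, the precision of low genes such as Hspb1 cannot be given from depth.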
